A study of Mus musculus with 4 samples.

Results

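The comparison set the 2 sperm libraries that carry replicate number 2 against the 2 that carry replicate number 1, over all 4 libraries of the study. Each replicate number held 1 library of the original cross and 1 of the extra cross to wildtype, and each library came from 1 adult C57BL/6 mouse whose spermatozoa came from the cauda epididymis, where mature sperm are stored. The labels give no further allele, agent or age for either cross, and the study's title contrasts sperm by whether LoxP, the short DNA site cut by Cre recombinase, can be silenced in them. The rule took libraries by replicate number only, and features by class and level. The comparison itself was chosen with earlier results of these data known. Of 2150 miRNA, tRNA, piRNA, rRNA and repeat features, 760 had a mean of at least 10 RPM (reads scaled to a common library total, the authors' unit) over the 4 libraries and were tested: 306 tRNA genes, 206 hairpins of microRNAs, 121 piRNA loci, 64 repeats and 63 rRNA transcripts. Many tRNA genes carry the same values in all 4 libraries, and the 760 features hold 543 distinct sets of values.

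Sperm carry little cytoplasm and a small RNA load that changes on the way through the epididymis. piRNAs are made in testicular germ cells from long precursor transcripts and bind PIWI proteins that silence transposons. Fragments of tRNA, mainly 5′ pieces of a few tRNAs such as those for glutamate and glycine, are prominent in cauda sperm, and microRNAs, which repress messenger RNAs that match their seed, are partly supplied by vesicles from the epididymal epithelium. A preparation of sperm can also hold epithelial, stromal or blood cells, each with microRNAs of its own.

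The microRNAs on which the comparison turned follow with their seed (bases 2 to 8) in capitals, as mature sequences from RefSeq on GRCm38.p6, where 183 of the 206 tested hairpins had an entry. The deposited value belongs to the hairpin, so the arms were not told apart, and the arm shown is the one usually described as the main product. The first 6 lines are hairpins that were lower in replicate 2, ordered from the miR-10 family to the erythroid microRNAs.
miR-10a-5p: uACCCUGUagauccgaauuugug
miR-10b-5p: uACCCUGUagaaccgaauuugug
miR-22-3p: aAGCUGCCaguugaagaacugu
miR-96-5p: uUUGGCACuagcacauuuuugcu
miR-451a: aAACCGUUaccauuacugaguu
miR-144-3p: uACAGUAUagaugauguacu
let-7d-5p: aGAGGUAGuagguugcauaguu
let-7f-5p: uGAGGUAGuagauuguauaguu
miR-30c-5p: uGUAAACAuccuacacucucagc
miR-30a-5p: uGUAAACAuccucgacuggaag
The miR-10 sequences differ at 1 base, U12A from miR-10a-5p to miR-10b-5p, counted from 1 at the 5′ end. The last 4 lines show the seed families, among the matched hairpins, in which hairpins called over all features went in both directions: let-7d differs from let-7f by U1A, A12G and U16C, all outside the seed, and miR-30c and miR-30a share their seed as well.

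A single read was worth 1.58 RPM in original-cross and 0.642 RPM in extra-cross replicate 1, and 0.561 and 0.238 RPM in replicate 2, so the scales rested on 632859, 1557778, 1782499 and 4205745 reads. Within each cross the replicate 1 library was the shallower, and 62 of the 760 tested features stood under 10 reads in original-cross replicate 1 against 3 in extra-cross replicate 2. The replicate numbers also came as 2 separate tables, whose totals behind RPM are not stated, and levels set side by side across them depend on those totals. Mouse, table, depth and the amount of RNA taken (which varied between samples, per the labels) cannot be told apart, since each cross had 1 library per replicate number. Fewer cells of a type and less RNA per cell cannot be told apart in such bulk samples either.

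In RPM, the miRNA class was much lower and the tRNA class higher in the replicate 2 than in the replicate 1 libraries, in both crosses. RPM is a share of a library total, so the amount of RNA in sperm was not measured. In the order original cross, extra cross, the miRNA class summed to 275809 and 441544 RPM in replicate 1 and to 117322 and 140437 RPM in replicate 2, which is 2.35-fold and 3.14-fold lower. The tRNA class summed to 189637 and 173022 RPM in replicate 1 and to 306950 and 291164 RPM in replicate 2, which is 1.62-fold and 1.68-fold higher. The ratio of tRNA to miRNA was 0.688 and 0.392 in replicate 1 and 2.62 and 2.07 in replicate 2, so that tRNA went from 34.1% and 25.8% of the 5 classes to 61.7% and 58.3%. The replicate groups did not overlap for any of these sums. The exact two-sided permutation test over the 4 libraries gave p = 0.333 for the miRNA, tRNA and repeat sums and for the ratio, which is the smallest p that 2 against 2 allows.

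The other classes had patterns of their own. Repeats had 11451 and 7741 RPM in replicate 1 and 4668 and 5489 RPM in replicate 2, with no overlap. piRNA loci had 16391 and 4068 RPM in replicate 1 and 8826 and 3684 RPM in replicate 2, so the replicate groups overlapped (exact permutation p = 0.667), and the original-cross library was the higher in each replicate. The rRNA class was nearly level in the original cross, at 62477 and 60096 RPM, and higher in replicate 2 of the extra cross, at 42994 and 58451 RPM (exact permutation p = 1).

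**Figure D1:**
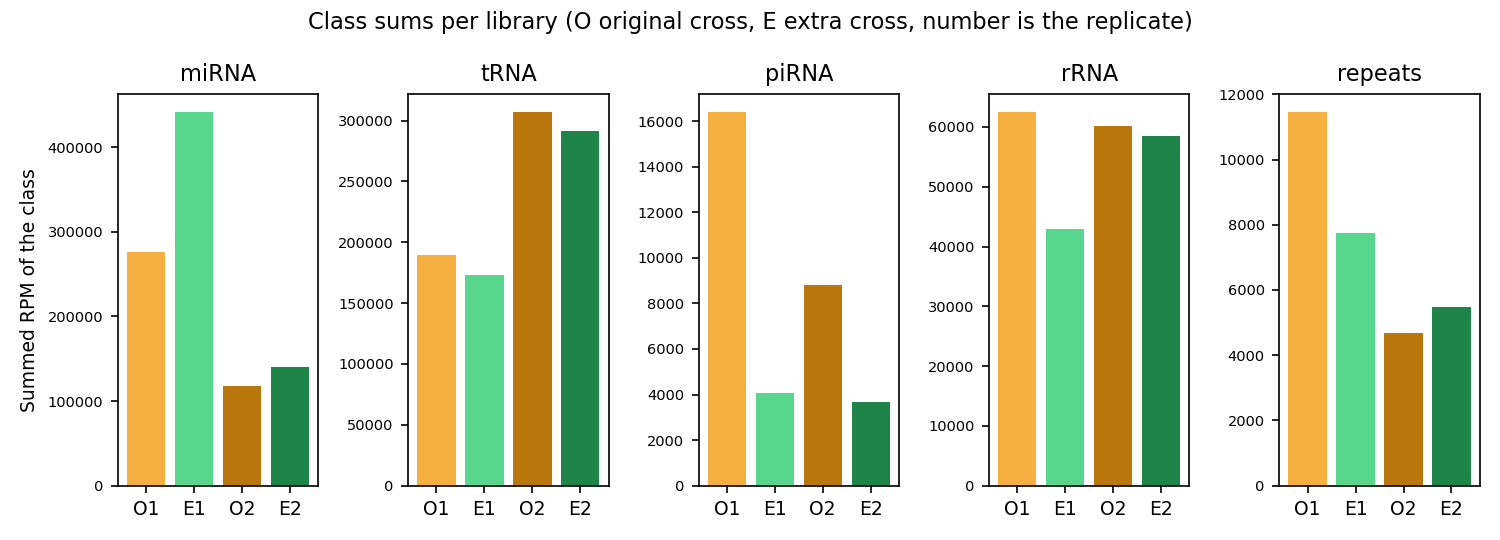
Summed RPM of each small RNA class (vertical axis, from 0, with a separate scale per panel) in each library (O1 and E1, original and extra cross of replicate 1; O2 and E2, of replicate 2). The miRNA bars of replicate 2 (117322 and 140437 RPM) stand below both bars of replicate 1 and the tRNA bars above, while the piRNA bars follow the cross.

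Over single features, 300 of 760 (39.5%) differed between replicate numbers at an adjusted p of 0.05 in the limma fit with cross type as a term, 127 of them higher (16.7%) and 173 lower (22.8%) in replicate 2. With features of identical values counted once, 161 of 543 (29.7%) passed. The values of the replicate groups did not overlap for 453 of the 760 features (59.6%). The fit left 1 residual degree of freedom and took each variance from the trend over features, so the standard errors (SE) and adjusted p values beside single features are those of the stricter limma fit with identical features counted once, and a p over all features is named as such. The count fell to 98 without original-cross replicate 2 and to 24 without extra-cross replicate 2, in fits that could no longer hold the cross term. In the same 4-library fit, cross type separated 171 features, with a median absolute log2 difference of 0.34 against 0.61 for the replicate number.

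The difference was shared out unequally among classes. Of the miRNA hairpins 6 were higher and 139 lower (1 and 111 counted once), of the tRNA genes 119 were higher and 13 lower (33 and 7 counted once), of the piRNA loci 12 were lower, of the repeats 1 was higher and 8 lower, and of the rRNA transcripts 1 went each way. Lower calls made up 67.5% of miRNA hairpins against 22.8% of all features, and higher calls 38.9% of tRNA genes against 16.7%, while the shares called of piRNA, rRNA and repeats were below the 39.5% over all features. The median log2 fold change was -1.17 for miRNA, 0.40 for tRNA, -0.51 for piRNA, -0.17 for rRNA and -0.19 for repeats, against -0.29 over all 760 features. Over distinct values it was -1.17, 0.30, -0.51, -0.38 and -0.17 in the same order. That overall median was -0.14 after median-ratio scaling and -0.02 after rescaling to the sum of the 5 classes. Calls were denser at high levels: 66.4% of features at 200 RPM or more passed, against 26.1% of those between 10 and 20 RPM.

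Direction was mostly shared by the crosses, which have no library in common here. Of the 543 distinct features, 330 were lower and 101 higher in replicate 2 in both crosses. The log2 differences of the crosses correlated with a Pearson r of 0.79 (Spearman rho 0.71), a description across features that share libraries. By class, r was 0.88 for 154 tRNA values, 0.62 for 195 miRNA values and 0.15 for 111 piRNA values. On all 760 features, libraries of the same replicate number correlated at 0.93 and 0.97 and libraries of the same cross at 0.89 and 0.88. The order differed by class: the median absolute log2 difference of miRNA hairpins was 0.54 and 0.35 within a replicate number and 1.07 and 1.20 within a cross, whereas that of piRNA loci was 2.19 and 1.43 within a replicate number and 0.90 and 0.25 within a cross. With distinct values and Spearman's rho the order was less plain, at 0.85 and 0.92 within a replicate number against 0.88 and 0.87 within a cross.

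**Figure D2:**
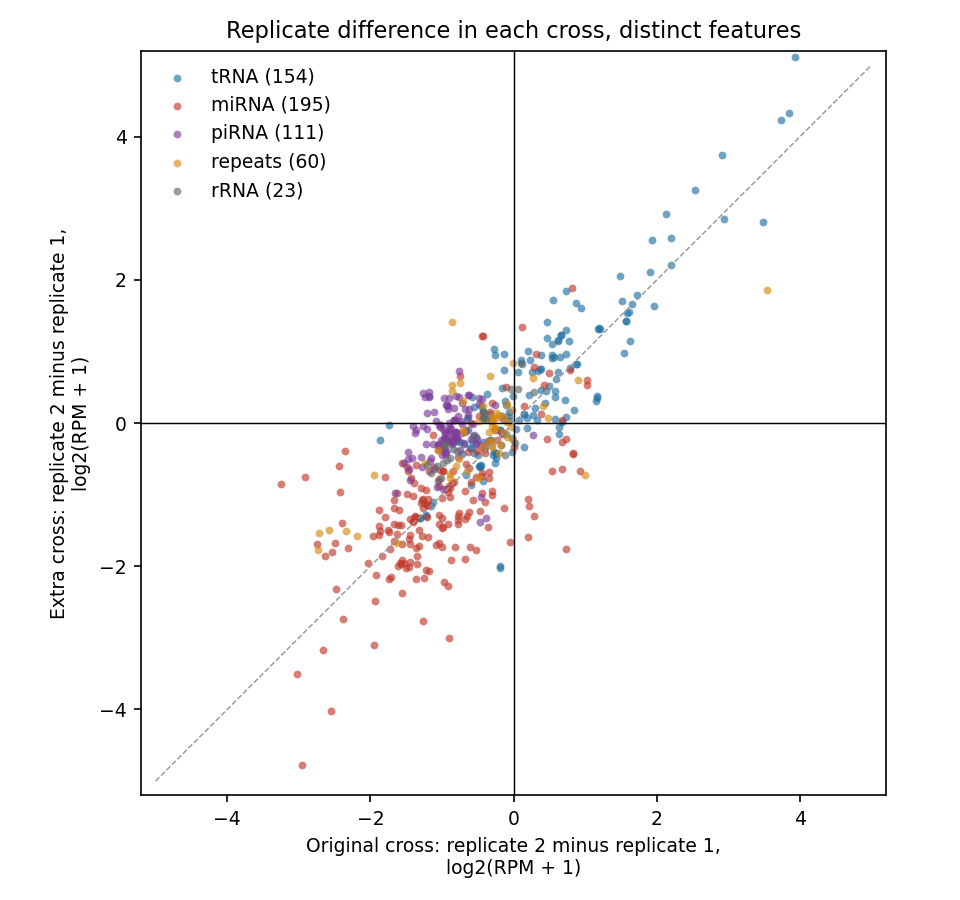
Difference of log2(RPM + 1) between replicate 2 and replicate 1 in the original cross (horizontal axis) and in the extra cross (vertical axis), 1 point per distinct feature, coloured by class, with the dashed line of equal differences. tRNA points run up the upper right and miRNA points fill the lower left, whereas piRNA points lie left of 0 in the original cross with a median near 0 in the extra cross (-0.14 over 111 loci).

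Among microRNAs, the miR-10 family dominated the sums and was lower, as was the class sum. mir-10b, a HOX-cluster microRNA, had 85208 and 151120 RPM in replicate 1 and 33062 and 45026 RPM in replicate 2 (log2 fold change -1.56 ± 0.14 SE, adjusted p 0.0037). mir-10a, which shares its seed, had 50397 and 111065 RPM against 21536 and 26893 RPM (-1.64 ± 0.21, adjusted p 0.0070). Both hairpins were higher in the extra-cross library of each replicate, and neither overlapped between replicates. Since the whole class moved, each miRNA was also expressed relative to the miRNA sum of its library. On that scale mir-10b (-0.11) and mir-10a (-0.19) lay close to 0. The family itself made up 135605 and 262185 RPM of that sum in replicate 1 and 54599 and 71919 RPM in replicate 2. A value near 0 was thus partly set by the scale and does not show that it moved with the other microRNAs. The median of all 206 tested hairpins on that scale was 0.27, so 0 is not the level of a typical hairpin.

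Among the hairpins of lowest p, mir-22, mir-375 and mir-96, which are also found in epithelia, were lower too. These 3 were not on the list of epithelial markers. That list, the miR-200 family described below, had a median of -1.10, and of 0.34 relative to the miRNA sum. mir-22 had 32835 and 40508 RPM in replicate 1 and 10914 and 10432 RPM in replicate 2 (-1.77 ± 0.16, adjusted p 0.0037). mir-375, an islet and neuroendocrine microRNA also made by epithelia, had 2718 and 2056 RPM against 488 and 412 RPM (-2.40 ± 0.22, adjusted p 0.0037). Here the drop exceeded that of the class, with -0.96 left relative to the miRNA sum. mir-96, from the miR-183 cluster of sensory and epithelial cells, went from 253 and 424 RPM to 30.3 and 36.4 RPM (-3.26 ± 0.29, adjusted p 0.0037; -1.84 relative to the miRNA sum). All 3 had their replicate groups well apart.

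Among the microRNA lists, that of blood cells had the median furthest from 0. All 9 tested hairpins of the list were lower in replicate 2 in both crosses and 8 passed the test (6 of 7 counted once), with a median over distinct hairpins of -2.56 against -1.17 for the class, and of -1.16 relative to the miRNA sum. Their sum was 6771 and 12104 RPM in replicate 1 and 1271 and 1192 RPM in replicate 2. mir-486a, an erythroid microRNA with an identical copy mir-486b, had 841 and 2790 RPM in replicate 1 and 108 and 101 RPM in replicate 2 (-3.87 ± 0.45, adjusted p 0.0069). mir-451a, which matures in red cells without Dicer, had 251 and 918 RPM against 42.1 and 55.5 RPM (-3.29 ± 0.41, adjusted p 0.0070). Its neighbour on the chromosome, mir-144, had 60.0 and 204 RPM against 10.7 and 29.7 RPM (-2.56 ± 0.30, adjusted p 0.0069).
In replicate 1 these erythroid values were higher in the extra-cross library, and the log2 difference of mir-486a was -2.95 in the original cross and -4.78 in the extra cross. The lymphocyte microRNA mir-150 was even between the crosses, at 3633 and 3483 RPM in replicate 1 and 571 and 388 RPM in replicate 2 (-2.92 ± 0.23, adjusted p 0.0037). The leukocyte microRNAs moved less: mir-142a had 419 and 483 RPM against 181 and 218 RPM (-1.17 ± 0.25, adjusted p 0.018). Relative to the miRNA sum its sign turned (0.26), near the median of all tested hairpins (0.27). mir-223, of neutrophils and monocytes, did not pass, with 56.9 and 33.4 RPM against 28.1 and 25.7 RPM. The part of blood RNA in the other differences was not tested.

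Markers of the other cells of the duct went different ways. The 5 tested hairpins of the epithelial miR-200 family were lower in both crosses and 4 passed, with sums of 4394 and 10409 RPM in replicate 1 and 2055 and 5315 RPM in replicate 2. mir-141 had 1920 and 5466 RPM against 781 and 2923 RPM (-1.10 ± 0.21, adjusted p 0.014), so the replicate groups overlapped and the extra cross was higher in each. mir-200a (-1.21), mir-200b (-1.17) and mir-429 (-0.83) passed as well. Relative to the miRNA sum all 4 turned positive (0.23 to 0.61), around or above the median of all tested hairpins (0.27). The 6 hairpins of smooth muscle and stroma had a median of 0.19 and no shared direction, with sums of 8547 and 3382 RPM in replicate 1 and 6264 and 5078 RPM in replicate 2.
mir-143 and mir-145a, smooth muscle microRNAs cut from 1 precursor, diverged. mir-143 had 1726 and 856 RPM in replicate 1 and 1867 and 2162 RPM in replicate 2 (0.72 ± 0.33, adjusted p 0.0043 over all features and 0.15 counted once). mir-145a had 1572 and 1240 RPM against 474 and 367 RPM (-1.74 ± 0.22, adjusted p 0.0070). The fibroblast microRNA mir-199a-1 changed sign with the cross, at 2270 then 1677 RPM in the original cross and 444 then 1035 RPM in the extra cross, and did not pass. Striated muscle hairpins summed to 171 and 89.9 RPM against 71.8 and 46.1 RPM, and those of liver and brain to at most 13.5 RPM in any library, too low to be tested. The part of epithelial, stromal and muscle RNA in the other differences was not tested.

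Germ cell microRNAs were lower in replicate 2, as was the miRNA class. mir-34c, of meiotic and later germ cells, had 1828 and 1703 RPM in replicate 1 and 707 and 1132 RPM in replicate 2 (-0.98 ± 0.27, adjusted p 0.040). mir-34b had 88.5 and 108 RPM against 40.4 and 70.4 RPM (-0.86 ± 0.30, adjusted p 0.036 over all features and 0.087 counted once). Both were positive relative to the miRNA sum (0.46 and 0.56), where the median of all tested hairpins was 0.27. In the X-linked cluster from miR-743 to miR-465, expressed in testis, all 13 tested hairpins were lower in both crosses. Of these 9 passed (69.2%, and 7 of 11 counted once), near the 67.5% of all miRNA hairpins called lower. The share over all features was 22.8%. The cluster had a median of -1.39 against -1.17 for the class. Relative to the miRNA sum it was -0.0030, below the 0.27 of all tested hairpins. Within that cluster mir-743b had 85.3 and 169 RPM against 25.2 and 37.1 RPM (-1.94 ± 0.30, adjusted p 0.0086), and mir-881 had 36.3 and 61.0 RPM against 19.6 and 33.8 RPM and did not pass (-0.85 ± 0.30).

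The let-7 and miR-30 families departed from the class. let-7, which represses growth genes, had a median of 0.21 over 12 hairpins, of which 2 were higher, 1 lower and 9 did not pass; counted once, only the lower one passed. let-7f-2 had 335 and 407 RPM in replicate 1 and 684 and 615 RPM in replicate 2 (0.81 ± 0.25, adjusted p 0.012 over all features and 0.061 counted once), and let-7f-1 went the same way (0.78 ± 0.26). let-7d, with the same seed printed above, had 965 and 1154 RPM against 385 and 350 RPM (-1.52 ± 0.24, adjusted p 0.0090). Its replicate groups and those of let-7f lay apart in opposite directions. let-7c-1 changed direction with the cross, with 642 then 1139 RPM in the original cross and 1376 then 1031 RPM in the extra cross.
Of the 7 miR-30 hairpins, 2 were higher and 2 lower. They held 6 distinct sets of values, with a median of -0.01, and counted once the 2 lower ones passed and no higher one. mir-30a had 561 and 652 RPM in replicate 1 and 699 and 1271 RPM in replicate 2 (0.64 ± 0.26, adjusted p 0.037 over all features and 0.12 counted once), and mir-30d had 144 and 179 RPM against 250 and 300 RPM (0.77 ± 0.26, 0.041 and 0.077). mir-30c-2 had 406 and 554 RPM against 214 and 207 RPM (-1.17 ± 0.27, adjusted p 0.023), and its copy mir-30c-1 was alike (-1.06 ± 0.28, adjusted p 0.036). Relative to the miRNA sum both families were higher, with medians over distinct hairpins of 1.64 for let-7 and 1.42 for miR-30. On that scale mir-30c-1 and mir-30c-2 turned positive (0.38 and 0.27), near the median of all tested hairpins (0.27). The 1 hairpin that remained higher when identical features were counted once was mir-1983, with 28.4 and 13.5 RPM in replicate 1 and 51.1 and 52.6 RPM in replicate 2 (1.35 ± 0.38, adjusted p 0.043).

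Further families had medians below 0, as had the class. All 5 hairpins of the miR-23/27/24 clusters were lower (median -1.37), as were all 6 of miR-99/100 and miR-125 (-1.71), all 6 of miR-181 (-1.14), 7 of 8 of miR-15/16 (-1.21), 6 of 10 in the oncogenic miR-17-92 cluster and its miR-106b-25 paralogue (-1.395), 2 of 3 of miR-26 (-1.39), 2 of 4 of miR-29 (-0.999) and 1 of 3 of the family of miR-148 (-0.91), with medians over distinct hairpins. Lower calls made up 67.5% of all miRNA hairpins and 22.8% of all features. The miR-26 (66.7%) and miR-17-92 and miR-106b-25 (60%) shares were thus slightly below that of the class. Those of miR-29 (50%) and the family of miR-148 (33.3%) were further below it. Counted once, 4 of 6 of miR-99/100 and miR-125, 3 of 6 of miR-181 and 4 of 7 of miR-15/16 passed. mir-27b had 6207 and 7409 RPM in replicate 1 and 1953 and 2800 RPM in replicate 2 (-1.54 ± 0.19, adjusted p 0.0070). mir-21a had 4728 and 8241 RPM against 2769 and 3354 RPM (-1.03 ± 0.21, adjusted p 0.017). mir-148a (-1.01), mir-26a-1 (-1.39), mir-181a-2 (-1.35), mir-125a (-1.70), mir-204 (-1.60) and mir-92a-1 (-1.73) were lower in both crosses.
The imprinted Dlk1-Dio3 cluster on chromosome 12 stood nearer to 0, with 1 of 11 hairpins lower and a median of -0.59. Its hairpin of highest RPM, mir-127, had 866 and 503 RPM against 558 and 379 RPM and did not pass. Relative to the miRNA sum the medians of most of these lists were positive (0.84 for the Dlk1-Dio3 cluster, 0.30 for miR-181), whereas miR-99/100 and miR-125 stayed below 0 (-0.27). The median of all tested hairpins on that scale was 0.27. Across the 183 matched hairpins, with chromosome 18 left out, the log2 fold change had a Spearman rho of -0.25 with the GC content of the mature sequences. That content was the mean over the matched arms, and some hairpins, such as mir-150 and mir-375, had only 1 arm matched. Its median was 47.8% in 122 lower hairpins and 44.7% in 57 that did not pass. The part of GC content in the result was not tested.

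**Figure D3:**
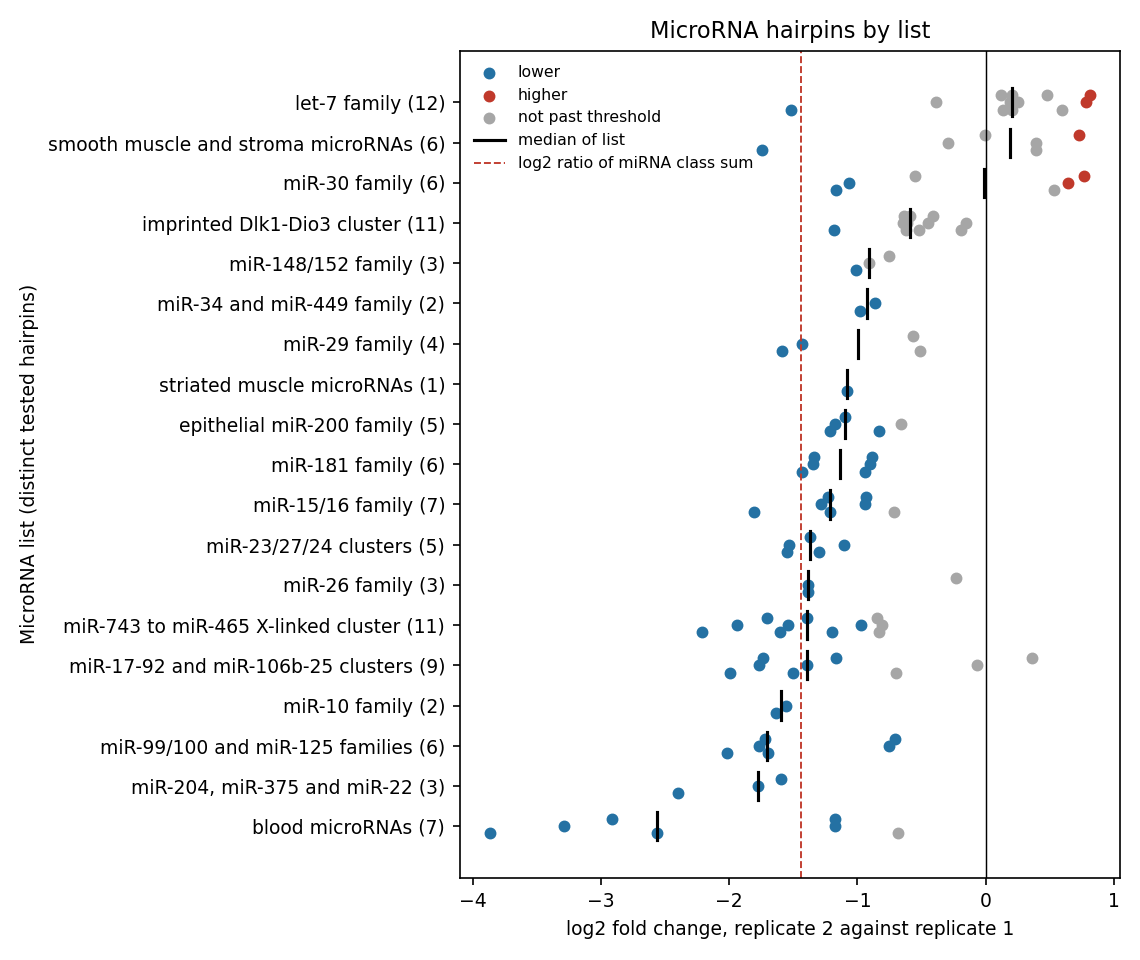
log2 fold change of replicate 2 against replicate 1 (horizontal axis) for each distinct tested hairpin of the microRNA lists (rows, with their number), coloured by the call over all features, blue where lower, red where higher and grey where not past the threshold, with black marks for list medians and a dashed line at the log2 ratio of the miRNA class sum (-1.44). Blood microRNAs reach furthest left (median -2.56), the let-7 and stromal lists have medians above 0 and the miR-30 median lies at -0.01.

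The tRNA class was higher as a whole, but its amino acid groups parted widely. All tested genes for asparagine (9), isoleucine (9), cysteine (9), initiator methionine (9), phenylalanine (5) and elongator methionine (5) were higher, with 20 of 21 for glutamate and 14 of 15 for aspartate. No gene for histidine, proline, serine, tyrosine or selenocysteine passed, and 1 of 23 for leucine did. Genes of identical sequence share reads, so these counts stand for fewer measurements: the 9 asparagine genes carried 1 set of values, as did the 5 phenylalanine genes. Counted once, 2 of 5 distinct cysteine values, 2 of 3 for initiator methionine, 2 of 3 for aspartate and 7 of 8 for glutamate were higher, and all those for asparagine, isoleucine, phenylalanine and elongator methionine. tRNA sequences of these genes were not used here.

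The steepest rises were in tRNAs with low RPM in replicate 1. tRNA-Phe-GAA-1-1, with 5 identical copies, had 6.56 and 4.91 RPM in replicate 1 and 115 and 203 RPM in replicate 2 (4.52 ± 0.39, adjusted p 0.0037). The replicate 1 values correspond to 4.15 and 7.64 reads per copy, and identical copies share reads. tRNA-Asn-GTT-3-1 had 9.47 and 8.65 RPM against 149 and 194 RPM (4.09 ± 0.31, adjusted p 0.0037). tRNA-Ile-AAT-3-1 had 9.78 and 11.1 RPM against 143 and 228 RPM (3.99 ± 0.31, adjusted p 0.0037), and tRNA-Ile-AAT-1-1 had 18.5 and 16.3 RPM against 146 and 231 RPM (3.33 ± 0.34, adjusted p 0.0050). In all of them the lowest replicate 2 value was several times the highest replicate 1 value, and the 2 libraries of replicate 1 lay close together.
tRNA-Thr-AGT-2-1 had 2.90 and 5.78 RPM against 42.8 and 46.4 RPM (3.15 ± 0.34, adjusted p 0.0059). tRNA-Met-CAT-2-1, which reads internal methionine codons, had 13.6 and 18.3 RPM against 111 and 139 RPM (2.90 ± 0.30, adjusted p 0.0050). tRNA-Asp-GTC-1-1, with 13 copies, had 202 and 82.6 RPM against 890 and 635 RPM (2.53 ± 0.30, adjusted p 0.0069). As a sum, phenylalanine tRNAs went from 34.8 and 30.1 RPM to 583 and 1042 RPM, which is 16.8-fold and 34.6-fold, and asparagine tRNAs were 15.5-fold and 21.98-fold higher.

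The bulk of the rise in RPM came from glutamate tRNAs, the source of a well-known 5′ fragment in sperm. Their sum was 45976 and 39637 RPM in replicate 1 and 124121 and 119273 RPM in replicate 2, or 2.70-fold and 3.01-fold. tRNA-Glu-CTC-1-1, with 9 copies, had 3771 and 3144 RPM per copy against 10810 and 10275 RPM (1.61 ± 0.17, adjusted p 0.0059), and tRNA-Glu-TTC-2-1 had 1358 and 1374 RPM against 3133 and 3401 RPM (1.26 ± 0.20, adjusted p 0.0086). The initiator tRNA-iMet-CAT-1-1 had 704 and 815 RPM against 2082 and 2198 RPM (1.497 ± 0.21, adjusted p 0.0081). tRNA-Ala-TGC-2-1 had 214 and 163 RPM against 821 and 959 RPM (2.24 ± 0.27, adjusted p 0.0070). These 4 tRNAs were also higher relative to the tRNA sum of their library, by 0.89, 0.53, 0.77 and 1.52 on the log2 scale.
Glycine tRNAs, the other well-known source of 5′ fragments, were nearly level. Their sum was 13464 and 13273 RPM in replicate 1 and 16698 and 14394 RPM in replicate 2, with 3 of 27 genes higher. tRNA-Gly-GCC-2-1, with 8 copies, had 815 and 853 RPM against 1020 and 883 RPM (0.19 ± 0.22) and did not pass. Valine (1.15-fold and 1.096-fold) and lysine (1.23-fold and 1.17-fold) sums moved little, while histidine tRNAs had 13420 and 8972 RPM against 8898 and 7128 RPM and leucine tRNAs 12597 and 12486 RPM against 10181 and 9836 RPM. tRNA-His-GTG-2-1 (-0.47 ± 0.22) and the selenocysteine tRNA-SeC-TCA-1-1 (-0.04 ± 0.22) did not pass.

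**Figure D4:**
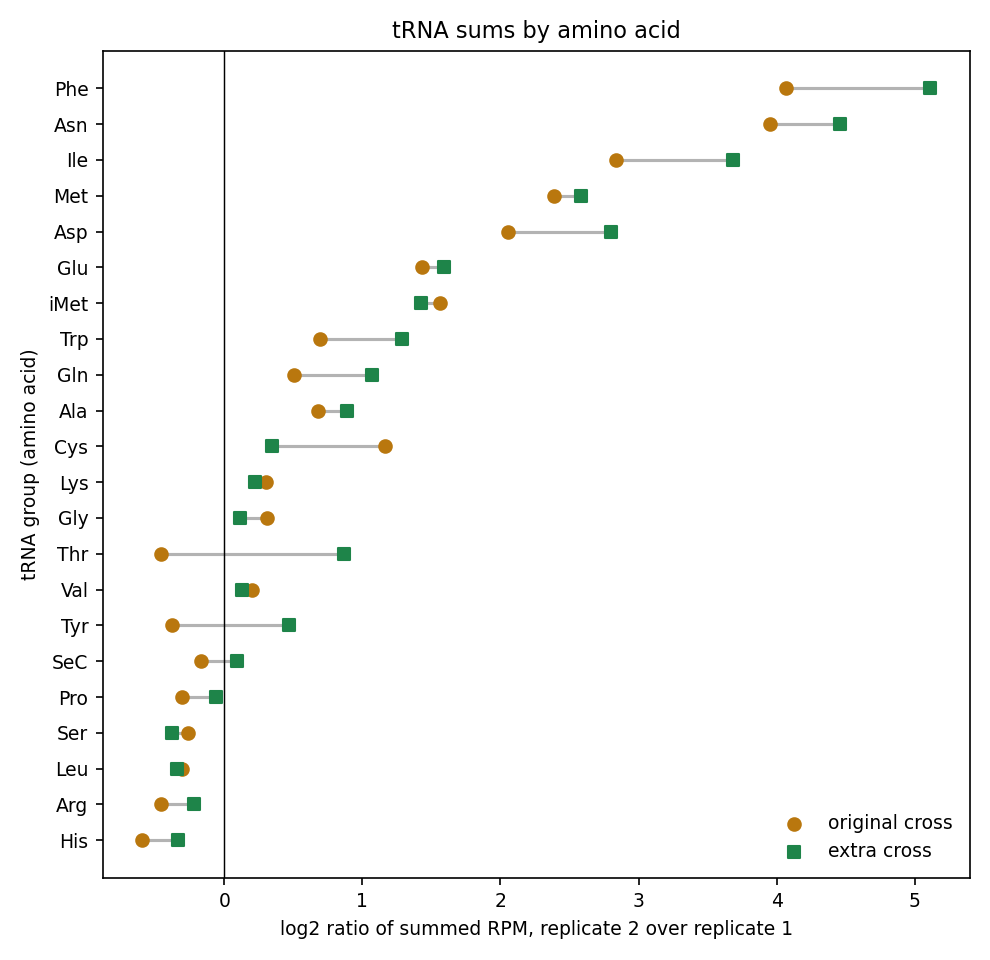
log2 ratio of summed RPM, replicate 2 over replicate 1 (horizontal axis), for the tRNA genes of each amino acid (rows) in the original cross (circles) and the extra cross (squares), joined by a line. Phenylalanine, asparagine and isoleucine stand furthest to the right in both crosses, and threonine, tyrosine and selenocysteine have their crosses on opposite sides of 0.

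Single genes within an amino acid group went against their kin. tRNA-Glu-CTC-3-1, the 1 glutamate gene that was lower, had 1133 and 1045 RPM in replicate 1 and 510 and 466 RPM in replicate 2 (-1.16 ± 0.22, adjusted p 0.015). tRNA-Val-CAC-4-1 had 2582 and 2732 RPM against 1048 and 1085 RPM (-1.32 ± 0.20, adjusted p 0.0086), and tRNA-Val-CAC-6-1 was nearly equal to it in every library (-1.31 ± 0.20). The more numerous tRNA-Val-CAC-2-1 genes, with the same anticodon, had 5478 and 5614 RPM against 6758 and 6473 RPM (0.25 ± 0.17) and did not pass. tRNA-Lys-CTT-13-1 had 674 and 621 RPM against 288 and 253 RPM (-1.26 ± 0.24, adjusted p 0.014), with tRNA-Lys-CTT-18-1 alike.
By contrast tRNA-Lys-CTT-2-1 had 2479 and 2707 RPM against 3705 and 3700 RPM (0.51 ± 0.19, adjusted p 0.022 over all features and 0.094 counted once), and tRNA-Lys-CTT-3-1 did not pass (0.20 ± 0.19). tRNA-Arg-CCG-3-1 had 1970 and 1627 RPM against 903 and 759 RPM (-1.11 ± 0.21, adjusted p 0.014). For each of these lower genes the 2 crosses gave nearly the same difference, and relative to the tRNA sum the differences were larger (-1.88 for tRNA-Glu-CTC-3-1 and -2.04 for tRNA-Val-CAC-4-1). tRNA-Lys-CTT-2-1 turned negative on that scale (-0.21), where the median of all tested tRNA genes was -0.31. Over all features 4 of 11 alanine genes with anticodon TGC were lower, while tRNA-Ala-TGC-2-1 was higher, and both tested threonine genes with anticodon CGT were lower; none of these lower genes passed when counted once.

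**Figure D5:**
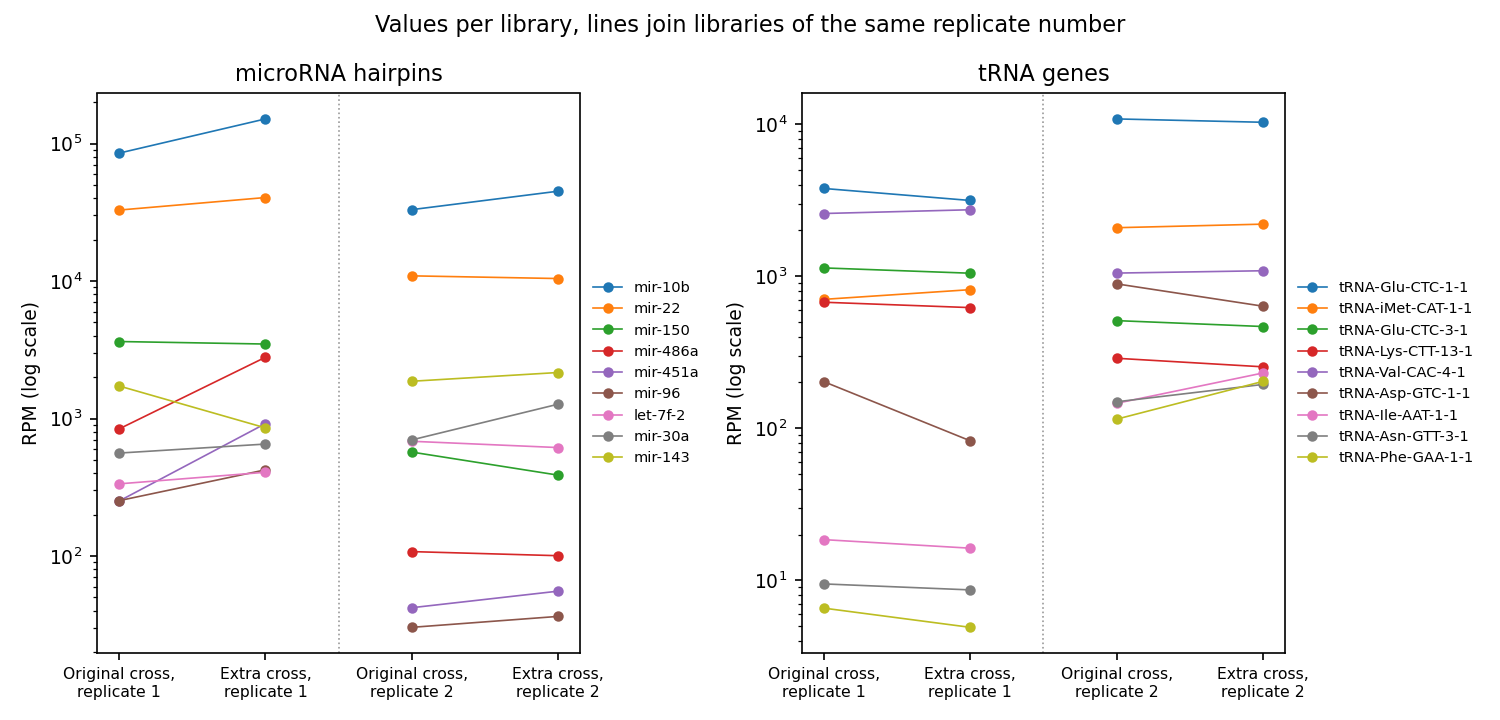
RPM (log axis) of 9 microRNA hairpins (left) and 9 tRNA genes (right) in each library, with lines that join the libraries of the same replicate number. mir-486a goes from 841 and 2790 RPM to 108 and 101 RPM, and tRNA-Phe-GAA-1-1 from 6.56 and 4.91 RPM to 115 and 203 RPM, while mir-143, let-7f-2 and mir-30a are higher in replicate 2.

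piRNA loci were lower in replicate 2 in the original cross, with a median log2 difference of -0.90 over 111 distinct loci, and nearly level in the extra cross, at -0.14. Of 121 loci 82 were lower in both crosses and none was higher in both, but 12 passed, and 1 of 111 when identical loci were counted once. That locus, pi-Rplp1.1, named for a ribosomal protein gene, had 56.9 and 30.8 RPM in replicate 1 and 17.4 and 15.2 RPM in replicate 2 (-1.31 ± 0.34, adjusted p 0.035). The locus 5-qF-4633.2 had 704 and 355 RPM against 339 and 285 RPM (-0.68 ± 0.29, adjusted p 0.047 over all features and 0.13 counted once). Relative to the piRNA sum the median of the 109 loci named for a chromosome band was -0.02.

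Among repeats, the lower features were mainly endogenous retroviruses of the ERV1 class. Of 9 tested ERV1 elements 5 were lower (55.6%, against 12.5% of tested repeats and 22.8% of all features). Their median was -1.88 against -0.19 for all repeats, and members ranged from -2.25 to 0.42. The whole ERV1 list summed to 655 and 401 RPM in replicate 1 and to 261 and 309 RPM in replicate 2. That is 2.51-fold lower in the original cross and 1.30-fold lower in the extra cross. HERVR_ERV1_Papio had 117 and 61.3 RPM in replicate 1 and 16.8 and 17.3 RPM in replicate 2 (-2.25 ± 0.36, adjusted p 0.0090). RAL_Rn_I_ERV1_Rattus had 78.0 and 38.8 RPM against 11.03 and 12.7 RPM (-2.13 ± 0.39, adjusted p 0.014), and RNLTR12-int_ERV1_Rattus, with the same value in original-cross replicate 1, had 78.0 and 38.2 RPM against 12.2 and 12.9 RPM (-2.04 ± 0.38, adjusted p 0.014). MuRRS4-int_ERV1_Mus (-1.88) and RNLTR21_I_ERV1_Rattus (-1.93) completed the 5. Several of these consensus sequences are named for other species, and related elements can share reads, so the 5 need not be separate measurements.
No member of the LINE L1 (26), ERV2 (5) or SINE (15) lists passed. L1MdTf_I_L1_Mus had 53.0 and 25.7 RPM against 43.6 and 27.2 RPM, MMERVK9E_I_ERV2_Mus had 581 and 597 RPM against 343 and 423 RPM, and HAL1-1H_Cpo_L1_Cavia changed sign with the cross. The retrovirus-like MMVL30_Internal_sequence had 584 and 269 RPM against 281 and 207 RPM (-0.71 ± 0.28, adjusted p 0.045 over all features and 0.11 counted once) and overlapped between replicates. Relative to the repeat sum it was positive (0.18) but below the median of all tested repeats on that scale (0.65). MER68_I_ERV3_Eutheria had 14.2 and 21.2 RPM against 3.93 and 5.94 RPM (-1.65 ± 0.31, adjusted p 0.014). The 1 repeat that was higher, RMER15-int_ERV3_Muridae, was listed at 0 in original-cross replicate 1 and had 6.42 RPM in extra-cross replicate 1, against 10.7 and 25.8 RPM (adjusted p 0.012). Against a floor of 3 reads (4.74 RPM) in the former library it was at least 2.25-fold higher in the original cross.

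The largest share of the repeat sum, and most of its difference, came from 5S_CPo_Nonautonomous_Cavia, a repeat consensus named for 5S rRNA. It had 7128 and 4886 RPM in replicate 1 and 1846 and 2961 RPM in replicate 2 (-1.34 ± 0.31, adjusted p 0.026). Among the 148 rRNA transcripts, all of which matched the GENCODE M21 annotation of GRCm38, 1 carried most of the RPM: ENSMUST00000198477.1 of CT010467.1 (chromosome 17, 39846353 to 39848201, minus strand). It had 58717 and 39099 RPM in replicate 1 and 57008 and 54408 RPM in replicate 2 (0.22 ± 0.17, adjusted p 0.044 over all features and 0.35 counted once), and the crosses went opposite ways. The 5S rRNA gene transcript ENSMUST00000082891.1 had 23.9 and 20.6 RPM against 10.2 and 12.4 RPM (-0.92 ± 0.32, 0.046 and 0.089). Both mitochondrial rRNAs failed to pass, with sums of 654 and 1169 RPM against 642 and 936 RPM.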

How the data were processed

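Small RNA of cauda sperm was sequenced in 4 libraries, 1 per mouse, that shared 1 lane. The authors deposited the values as RPM in 2 tables, 1 per replicate number with 1 column per cross. Per the submitters' processing notes, the build was mm10 and the tools included Bowtie 1.1.2 and CASAVA 1.8.2. Trimming, annotation and the handling of multiple matches were not given in the sources read. The replicate number of a column was taken from its table. RefSeq rows were not used. A feature listed in 1 table only was given 0 in the other (99 and 269 features). The commonest miRNA value was taken as 1 read; since 28.6% to 36.6% of the values of at most 20 reads lay within 0.02 of a whole read, the tests used RPM and not counts. Features averaging 10 RPM or more were tested on log2(RPM + 1) with limma 3.58.1 in R 4.3.3, with cross type and replicate number as terms, a variance trend and Benjamini-Hochberg adjustment over all features tested. Fold changes are on that scale and understate those of low features. Class sums were compared by an exact permutation test. Standard errors are limma's. The fit was tested on simulated data. Tables were made in pandas 2.3.3 and numpy 2.4.6 (Python 3.11.15) and plots in matplotlib 3.10.9. RPM is not divided by length.

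The comparison, the lists and the tests were chosen with earlier results of these data known. Lists covered microRNA families, markers of other cells, tRNA by amino acid, piRNA loci and repeat families. The naming rule took the features of lowest p, highest RPM or most extreme fold, the leading members of each list and the few called ones; of the 200 features it gave, 77 are described, and mir-144 and mir-223 were added after their values were seen, as were the let-7 and miR-30 sequences. Alternatives were other pseudocounts, filters and scalings, no cross term, no trend, identical features counted once and each library left out.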

Additional observations from a re-analysis of the deposited data

Results flagged for a closer look

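Results are listed here when the replicate difference went up in one cross and down in the other; with 1 library per cross and replicate number this difference between crosses was not tested. Over the 543 distinct features 112 did not share their sign between the crosses, of which only those described in the text are named. Values are log2 differences, replicate 2 minus replicate 1, in the original and then the extra cross. The rRNA class sum had -0.056 and 0.44, and its main transcript, ENSMUST00000198477.1, had -0.043 and 0.48. Among list sums, let-7 had 0.48 and -0.31, miR-30 had -0.11 and 0.0085, smooth muscle and stroma microRNAs had -0.45 and 0.59, threonine tRNA had -0.46 and 0.86, tyrosine tRNA had -0.38 and 0.47, selenocysteine tRNA had -0.17 and 0.093, and LINE L1 elements had -0.35 and 0.125. let-7c-1 had 0.83 and -0.42. mir-199a-1 had -0.44 and 1.22. tRNA-SeC-TCA-1-1 had -0.17 and 0.093. HAL1-1H_Cpo_L1_Cavia had -0.86 and 1.41, and L1MdTf_I_L1_Mus had -0.28 and 0.075.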

How the results depend on the processing

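No paired analysis was possible because the replicate number is itself what was compared and cannot also serve as a block; the cross term already sets the replicates against each other within each cross. The 300 calls (127 higher, 173 lower) became 303 and 285 with pseudocounts of 0.5 and 5 RPM, 284 after median-ratio scaling (265 of the 300 kept), 301 with no variance trend and 312 of 2150 features with no filter. A minimum of 50 RPM gave 217 (107 higher, 110 lower), and rescaling to the sum of the 5 classes 225 (125 higher, 100 lower), so there higher calls outnumbered lower ones. Counts were 173 (78 higher, 95 lower) with each class scaled to its own sum, where 77 of the 300 calls were kept and 76 had the opposite sign, 149 (74 and 75) with no cross term and 161 (35 and 126) with identical features counted once. Leaving out 1 library gave 24 to 256 calls, 18 to 96 higher and 6 to 168 lower, with the fewest without extra-cross replicate 2 and 98 (68 and 30) without original-cross replicate 2; lower calls were 106 without original-cross replicate 1. The cause was not tested, but these fits lacked the cross term. The mean log2 ratio of the tRNA sum, 0.72, was 0.88 after median-ratio scaling and 1.01 after rescaling to the 5 classes; that of the rRNA sum, 0.19, was -0.056 to 0.44 when 1 library was left out, the lower value without either extra-cross library.

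Of the 79 described features sign changes with a call on either side came under 2 settings. With each class scaled to its own sum, 15 did: mir-142a 0.26, mir-30c-1 0.38, mir-30c-2 0.27, mir-200a 0.23, mir-200b 0.27, mir-141 0.34, mir-429 0.61, mir-34c 0.46, mir-34b 0.56, mir-148a 0.43, mir-21a 0.41, mir-181a-2 0.092, mir-26a-1 0.053, tRNA-Lys-CTT-2-1 -0.21 and MMVL30_Internal_sequence 0.18. That scaling sets the sum of each class level but not its typical feature. Class medians on it were 0.27 for miRNA, -0.31 for tRNA and 0.65 for repeats. Without 1 library, mir-199a-1 ranged from -0.78 to 1.57 and ENSMUST00000198477.1 from -0.076 to 0.51, the lower value in both without extra-cross replicate 1. Without extra-cross replicate 2, 58 of the 66 described features past the threshold lost their call. Depth limits the low features: 10 RPM stood for 6.33 reads in original-cross replicate 1.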
